A study of Gallus gallus with 2 samples.

Results

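Prostaglandins are short-lived lipid signals that cells make from arachidonic acid. Phospholipases free the arachidonic acid from membranes, a cyclooxygenase turns it into prostaglandin H2, and terminal synthases turn that into prostaglandin E2 (PGE2), prostaglandin D2 (PGD2) or thromboxane A2. Each product is sensed by its own G protein-coupled receptors on nearby cells, and a dehydrogenase ends the signal. In the mammalian cochlea PGE2 receptors are known to be present on the sensory epithelium. The study that reported these data cites work in which prostaglandin E raised vascular endothelial growth factor (VEGF) secretion from mouse cochlear explants.

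The 10 genes described here are 2 cyclooxygenases (PTGS1 and PTGS2), 3 PGE2 synthases (PTGES, PTGES2 and PTGES3), the PTGES3 paralog PTGES3L, the PGD2 synthase PTGDS, the PGE2 receptors PTGER3 and PTGER4, and HPGD, which inactivates prostaglandins. They were chosen by gene symbol, and all 10 were found, each as 1 of the 23842 genes in the files. RNA was sequenced from explants of the basilar papilla (BP), the auditory epithelium of the bird, from male Momiji chicks at posthatch day 1. One library was made before exposure to the aminoglycoside streptomycin (SM0) and 1 after 48 h of streptomycin and 6 h more without it (post-SM6), each from a pool of 50 BPs whose surrounding tissue had been removed with thermolysin. With 1 library per time point no difference has a replicate check, no p-value is given, and no explants kept in culture for the same time without streptomycin were analysed here, so streptomycin, time in culture and differences between the pools cannot be told apart. Values are TPM, a gene's length-corrected share of all transcripts on a scale with the same sum in each library, so TPM can be compared between genes, but they do not carry the number of reads and the depth behind each value is unknown. The log2 change sets post-SM6 over SM0 after adding a pseudocount of 0.1 to each TPM, and on this scale the change of low genes is understated. A gene is called higher or lower at post-SM6 when it is past 1.3-fold and reaches 1 TPM in at least 1 of the libraries.

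The labels name hair cells (HCs) and supporting cells (SCs) in the SM0 BPs and SCs alone in the post-SM6 BPs. Of 14 genes matched to 13 HC marker symbols, 12 were lower at post-SM6 and 1 was higher (CALB2, 25.3 and 218 TPM). A gene matched to POU4F3 (gene ID 395521) is named POU4F1L in current RefSeq and counts among those lower. The HC list's summed TPM was 2546 and 397.9 in turn. Of 14 SC markers, 5 were higher, 3 lower and 6 within 1.3-fold, beside 23.9% higher and 23.3% lower of all genes. The SC list summed to 7195 TPM and 7171 TPM. Markers of other cells moved as well. All 13 fibroblast markers were higher at post-SM6 (summed TPM 54.7 and 449.1), and so were all 10 macrophage markers found (45.1 and 203.6), of which 3 reached 1 TPM at SM0. No fibroblast or macrophage marker found was at 0 in both libraries. Of 8 neuron and Schwann cell markers, 7 were lower (summed TPM 371.3 and 149.3). Of 6 tegmentum vasculosum and homogene cell markers that reached 1 TPM in either library, 3 were higher and 2 lower. Of 4 such endothelium markers, 2 were higher and 1 lower. In such bulk libraries, fewer cells of a type and less RNA per cell cannot be told apart.

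Among the 10 genes, PTGS2 was lower at post-SM6 by the widest margin, PTGDS was higher by the widest margin, PTGES and PTGES3L were moderately higher, and PTGES2 and PTGES3 stayed within 1.3-fold. Low-level genes made up the rest: PTGS1, PTGER3 and HPGD were higher and PTGER4 was lower at post-SM6. Their values lay between 0.33 and 3.28 TPM. Altogether 6 genes were higher and 2 were lower. Among all 13321 genes that reached 1 TPM in at least 1 library, 23.9% were higher and 23.3% lower by the same criterion. The median log2 change was 1.01 over the 10 genes and -0.02 over all 13321. These shares carry little weight for the low genes. PTGS1, PTGER3 and HPGD reached 1 TPM only at post-SM6 and PTGER4 only at SM0. A gene admitted by 1 library alone has to be higher in that library, which favours a call in that direction. Past 2-fold, 5 of the 10 genes were higher and 1 was lower, where 9.56% and 7.83% of all genes were. PTGS1, PTGER3 and HPGD are among those 5, so this count and the median carry the same limit. The 10 genes were also chosen with earlier results of these data known. The weighted average difference (WAD), which weights the log2 change by the level, was computed here on TPM. At 0.91 it called 0.195% of all genes upward and 0.248% downward, and 0 of the 10 genes. The study set that threshold on normalized read counts, so this is not its criterion. PTGS2 came closest, with a WAD of -0.78, followed by PTGDS with 0.65.

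**Figure D1:**
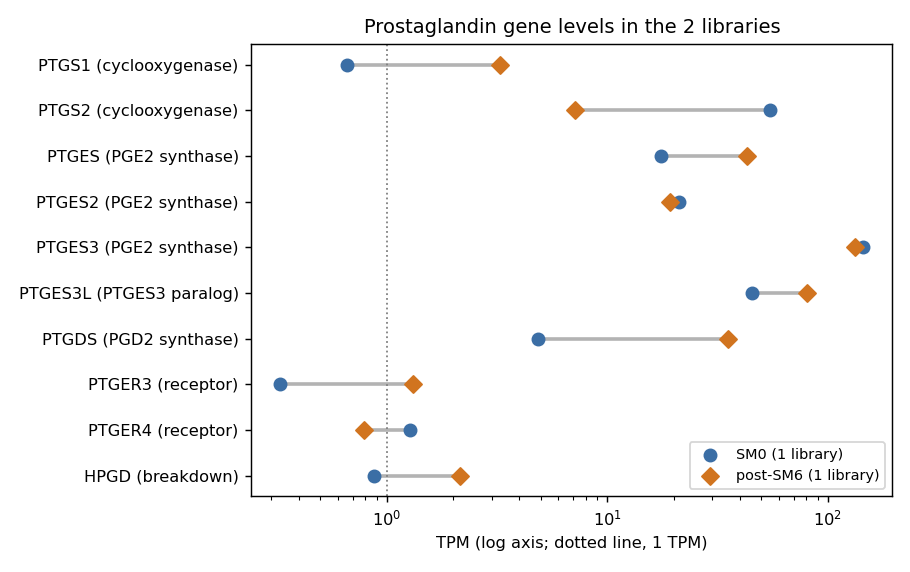
TPM of the 10 prostaglandin genes (rows, with their roles) at SM0 (circles) and post-SM6 (diamonds) on a log axis, 1 library each, with a line joining the 2 values of a gene. PTGS2 moved left from 54.8 to 7.18 TPM and PTGDS moved right from 4.86 to 35.1 TPM, while the symbols of PTGES2 and PTGES3 nearly coincide.

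The cyclooxygenases catalyse the committed step. PTGS2 (gene ID 396451), the inducible cyclooxygenase known as COX-2 and an immediate early gene in many cell types, was at 54.8 TPM in the SM0 library and at 7.18 TPM in the post-SM6 library. Its log2 change was -2.92, a level 7.55-fold lower, and 185 of the 13321 genes had a lower change. In order of level over all genes it was 2451st at SM0 and 9136th at post-SM6. PTGS1 (gene ID 427752), the constitutive cyclooxygenase COX-1, moved the other way, with 0.66 TPM at SM0 against 3.28 TPM at post-SM6 (log2 change 2.15). The 2 genes together summed to 55.5 TPM before exposure and to 10.5 TPM after it, and PTGS2 made up 98.8% of that sum at SM0 and 68.6% at post-SM6. PTGS2 was therefore the more abundant cyclooxygenase transcript in both libraries, by a ratio of 83.1 in the first and 2.19 in the second.

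EGR1, an immediate early transcription factor, had 1015 and 1286 TPM, and ATF3, a stress-induced transcription factor, had 177 and 167 TPM. Both were within 1.3-fold, and NR4A3, another early response gene, was higher (295 and 571 TPM). These 3 genes were named after their values were seen. A list of 18 symbols of known inducers of PTGS2 and PTGES and their mediators had 13 genes past the TPM minimum. Of these, 1 was higher and 4 were lower, beside 23.9% and 23.3% of all genes, with a median log2 change of 0.00. TNFAIP3, a feedback inhibitor of NF-kappaB, was the higher one (6.23 and 9.11 TPM), followed by CEBPD (130 and 166 TPM), which was within 1.3-fold. IL6 (5.08 and 1.05 TPM, log2 change -2.17), a cytokine, and IL1R1 (5.40 and 2.51 TPM, log2 change -1.08), the receptor of interleukin 1, were lowest. In the RefSeq annotation of GRCg7b, the span of PTGS2 overlaps that of PLA2G4A, the cytosolic phospholipase A2 that supplies its substrate. PLA2G4A had 20.6 TPM at SM0 against 12.2 TPM at post-SM6 (log2 change -0.75). The labels do not describe a strand-specific library, so reads from any shared stretch may have been split between both genes, which was not measured here. The same limit holds for PTGES, which overlaps LOC417192 (0.18 and 0.31 TPM) and LOC121107102, a gene without values here. PTGER3 and PTGER4 each overlap a long non-coding RNA gene and share this limit.

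Of the PGE2 synthases, PTGES (gene ID 417193), the inducible microsomal enzyme that is functionally coupled to COX-2 in mammals, was the one that was higher. It had 17.5 TPM at SM0 against 43.0 TPM at post-SM6, which is 2.44-fold (log2 change 1.29), and 886 of the 13321 genes had a higher change. PTGES2 (gene ID 417214), a membrane-associated synthase, had 21.2 and 19.2 TPM (log2 change -0.14). The order of the pair was thus exchanged, with PTGES at 0.827 of the level of PTGES2 before exposure and at 2.24 times its level after it. PTGES3 (gene ID 100859133), the cytosolic synthase that is also the HSP90 co-chaperone p23, was the most abundant of the 10 genes in both libraries, with 145 and 133 TPM (log2 change -0.12). Over these 3 synthases the summed TPM was 183.8 at SM0 and 195.2 at post-SM6. Most of that sum was PTGES3, with 78.9% and 68.1%, while the share of PTGES was 9.55% and 22.0%. So PTGES and PTGS2, which act in sequence, differed in opposite directions between these 2 libraries.

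PTGES3L (gene ID 420013), a paralog of PTGES3 for which no synthase activity is assumed here, had 45.5 TPM at SM0 against 80.7 TPM at post-SM6 (log2 change 0.83, 1.77-fold). PTGES3 exceeded it by 3.19 times in the first library and by 1.65 times in the second. Paralogs can share reads where their sequences match, and their sequences were not compared here. AARSD1, the gene next to PTGES3L in the RefSeq annotation, had 32.7 and 39.7 TPM (log2 change 0.28), within 1.3-fold. In human the 2 genes are also joined in read-through transcripts, and how the counting treated such reads in chick is not known.

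PTGES3 also works with HSP90. Of 11 HSP90 partners listed, 10 passed the TPM minimum, and 2 of those were higher, 2 lower and 6 within 1.3-fold, beside 23.9% higher and 23.3% lower of all genes, with a median log2 change of -0.07. TERT, the telomerase subunit, was below the minimum (0.71 and 0.94 TPM). The chaperone HSP90AA1 (638 and 713 TPM) and the co-chaperones AHSA1 (62.0 and 63.7 TPM), STIP1 (87.6 and 80.0 TPM), CDC37 (114 and 105 TPM), FKBP4 (68.5 and 66.8 TPM) and PPID (54.2 and 50.6 TPM) were within 1.3-fold. FKBP5, a co-chaperone induced by glucocorticoids, was higher, with 22.4 and 53.0 TPM (log2 change 1.24), and so was HSP90B1 of the endoplasmic reticulum (119 and 167 TPM). HSP90AB1 (58.7 and 39.7 TPM) and NR3C1, the glucocorticoid receptor (5.35 and 3.90 TPM), were lower.

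PTGDS (gene ID 374110), the lipocalin-type PGD2 synthase, which is secreted and also carries small lipids, had 4.86 TPM at SM0 against 35.1 TPM at post-SM6. That is a 7.10-fold higher level (log2 change 2.83), and 157 of the 13321 genes had a higher change. Its order of level over all genes went from 10031st to 3732nd. The fibroblast and macrophage markers were higher in the same library, by medians of 2.34 and 1.81 on the log2 scale, and their part in the PTGDS value was not tested. The other PGD2 synthase, the haematopoietic enzyme HPGDS (gene ID 395863), was far more abundant, with 1457 TPM at SM0 against 1298 TPM at post-SM6 (log2 change -0.17). HPGDS exceeded PTGDS by 299.7 times before exposure and by 36.9 times after it, and it made up 99.7% and 97.4% of their sum. HPGDS is also a glutathione S-transferase, and it had the highest TPM of the prostanoid enzymes listed here in both libraries. Blood cells are a known source of this enzyme. Of the 10 macrophage markers found, 3 reached 1 TPM at SM0, namely CD74 (30.5 and 91.4 TPM), CTSS (9.08 and 89.6 TPM) and CSF1R (1.09 and 2.34 TPM). The leukocyte marker PTPRC, in the same list, was at 0.83 and 1.22 TPM. The part of these markers' cells in the HPGDS value was not tested.

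For the other prostanoid synthases and reductases, 8 genes were found for 11 symbols sought, and 6 of them were higher and 1 lower, with a median log2 change of 0.88. Over all genes 23.9% were higher and 23.3% lower, with a median of -0.02. The largest changes were those of AKR1D1, a reductase known for steroids and bile acids (0.67 and 8.31 TPM, log2 change 3.45), which reached 1 TPM only at post-SM6, and AKR1A1, an aldehyde reductase (83.0 and 168 TPM, log2 change 1.01). The other higher genes were CBR1 (CBR3 in current RefSeq, 74.8 and 113 TPM), AKR1B1 (103 and 201 TPM), AKR1B10 (22.6 and 44.3 TPM) and GSTM2 (42.4 and 73.4 TPM). The one gene that was lower was TBXAS1, the thromboxane synthase (1.42 and 0.81 TPM, log2 change -0.74). HPGDS was within 1.3-fold. For the step before the cyclooxygenases, 15 genes of 21 symbols for substrate release passed the TPM minimum, and 4 were higher and 4 lower, with a median of -0.10. PLA2G2E, a secreted phospholipase (2.52 and 6.22 TPM), and ABHD6, a monoacylglycerol lipase (7.61 and 15.5 TPM), had the highest changes. PLA2G4A and DAGLA, a diacylglycerol lipase (2.57 and 1.5 TPM), had the lowest. Of 5 annexin-related inhibitors of phospholipase A2, 1 was higher (ANXA1, 49.7 and 65.5 TPM) and 2 were lower, among them S100A10, the partner of annexin A2 (5212 and 3159 TPM).

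**Figure D2:**
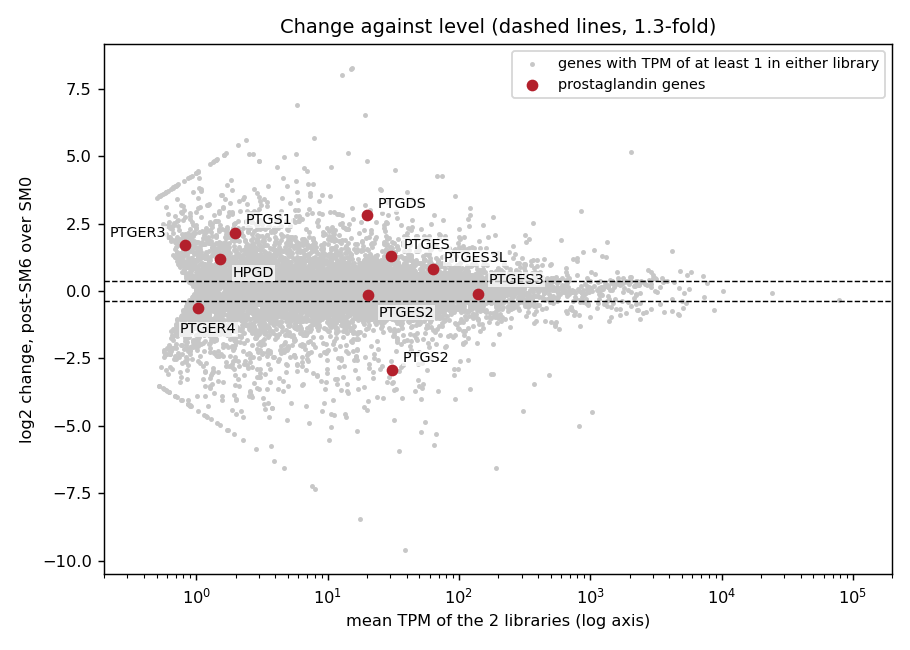
Log2 change (post-SM6 over SM0) against mean TPM of both libraries on a log axis for 13321 genes that reached 1 TPM in at least 1 library (grey) and the 10 prostaglandin genes (red), with dashed lines at 1.3-fold. PTGS2 and PTGDS lie below and above most genes of their level, and PTGS1, PTGER3, PTGER4 and HPGD lie at the left end, where grey points spread widest.

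The receptors among the 10 genes were near the limit of the TPM minimum. PTGER3 (gene ID 429116), which encodes the EP3 receptor for PGE2, had 0.33 TPM at SM0 against 1.32 TPM at post-SM6 (log2 change 1.72). PTGER4 (gene ID 427183), which encodes the EP4 receptor that raises cyclic AMP, had 1.28 and 0.79 TPM (log2 change -0.63). At such levels differences are common: among 5040 genes with mean TPM under 10, 33.2% were higher and 30.7% lower by 1.3-fold, against 17.7% and 19.0% of 6964 genes between 10 and 100 TPM. With a pseudocount of 1 in place of 0.1, the log2 change of PTGER3 was 0.80, and PTGER4, at -0.35, no longer passed the criterion.

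The other prostanoid receptors found in the files place these values. Of 8 symbols sought for other prostanoid receptors and receptor regulators, 5 were found, so the receptor sums given may lack members. PTGER2, the EP2 receptor, which like EP4 raises cyclic AMP, had 1.16 TPM at SM0 against 3.79 TPM at post-SM6 (log2 change 1.63). EP4 had thus the highest TPM of the 3 PGE2 receptors found before exposure, with 46.2% of their sum, just above EP2 with 41.9%. After exposure it had the lowest, with 13.4% against 64.2% for EP2 and 22.4% for EP3. The summed TPM of the 3 receptors was 2.77 and 5.90. All 3 were low and the depth is unknown, so their order within a library is uncertain. PTGDR, a PGD2 receptor (gene ID 107051813, which RefSeq for GRCg7b lists without this name), had 0.28 and 1.65 TPM (log2 change 2.20).

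The most abundant prostanoid receptor changed between the libraries. TBXA2R, the thromboxane A2 receptor, led at SM0 with 40.4 TPM and was at 4.25 TPM at post-SM6 (log2 change -3.22). PTGFR, the receptor for prostaglandin F2-alpha, was next at SM0 with 13.3 TPM and led at post-SM6 with 34.3 TPM (log2 change 1.36). Of the summed TPM of 6 receptors, which was 56.8 at SM0 and 46.1 at post-SM6, TBXA2R had 71.2% and then 9.22%, and PTGFR had 23.5% and then 74.4%. The HC markers were lower in the same library, with a median log2 change of -2.74, and the neuron and Schwann cell markers too, with -1.72, and their part in the TBXA2R and PTGS2 values was not tested. Of 9 thrombocyte and erythrocyte markers found, 4 reached 1 TPM in each library and 2 were at 0 in both, with summed TPM of 36.8 and 20.4. Of those 4, 0 were higher and 3 lower, beside 23.9% and 23.3% of all genes. The lower ones were HBA1 (8.84 and 1.53 TPM), HBAD (4.51 and 1.44 TPM) and HBBA (12.1 and 7.04 TPM). Thrombocytes are known to carry the TBXA2R receptor. Of the integrins that mark them, ITGA2B was at 0.11 and 0.03 TPM and ITGB3, which other cells also express, was at 10.7 and 9.69 TPM, and their part in the TBXA2R value was not tested. PTGER2, PTGFR and PTGFRN, a membrane protein that binds the PTGFR receptor (10.5 and 9.98 TPM), were named after their values were seen.

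**Figure D3:**
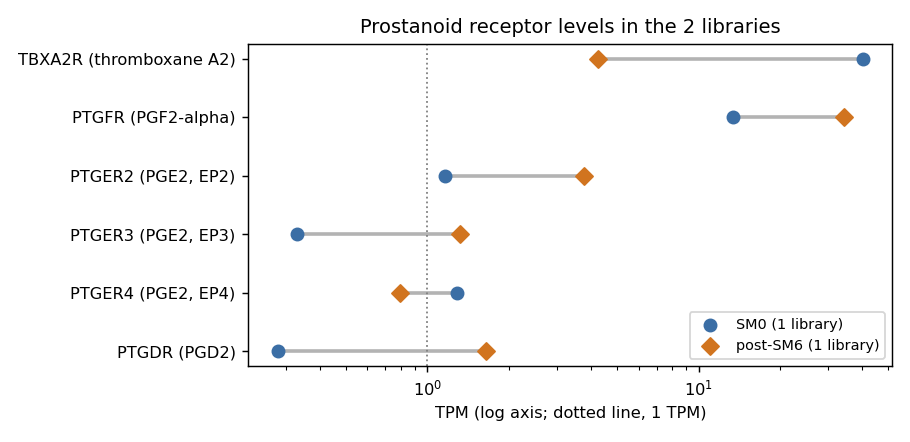
TPM of 6 prostanoid receptors (rows, with the ligand of each) at SM0 (circles) and post-SM6 (diamonds) on a log axis, 1 library each. TBXA2R moved from 40.4 to 4.25 TPM and PTGFR from 13.3 to 34.3 TPM, while the other 4 receptors stayed below 4 TPM in both libraries.

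HPGD (gene ID 422567), the 15-hydroxyprostaglandin dehydrogenase that inactivates PGE2, had 0.88 TPM at SM0 against 2.15 TPM at post-SM6 (log2 change 1.20, 2.30-fold). It was low in both libraries, 12881st and 11581st in order of level. SLCO2A1, the transporter that takes prostaglandins into cells for breakdown by HPGD, had likewise a low and higher value, with 1.14 and 3.47 TPM (log2 change 1.53). Of 7 transport and breakdown genes, it was the 1 that was higher, and 3 were lower, beside 23.9% and 23.3% of all genes. The 7 genes had a median log2 change of -0.28. The lowest was SLCO3A1, another organic anion transporter (3.83 and 1.35 TPM, log2 change -1.44). For the next step of breakdown, the reductases PTGR1 (22.4 and 27.4 TPM) and PTGR2 (8.11 and 8.48 TPM) stayed within 1.3-fold. ZADH2, also in this list, was lower (7.9 and 5.36 TPM, log2 change -0.55). These genes were named after their values were seen.

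Arachidonic acid can also enter the leukotriene branch. There 6 of 16 listed symbols gave genes past the TPM minimum. Of these, 5 were higher and 1 lower, beside 23.9% and 23.3% of all genes. ALOX5, the 5-lipoxygenase that opens this branch, was the lower one, with 10.3 TPM at SM0 against 1.44 TPM at post-SM6 (log2 change -2.75). MGST2, a microsomal enzyme that can make leukotriene C4, had the highest change, with 2.62 and 8.84 TPM (log2 change 1.72). PTGS2 and ALOX5, entry enzymes of both branches, were therefore lower at post-SM6, while the other cyclooxygenase, PTGS1, was higher (0.66 and 3.28 TPM).

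Downstream of the EP2 and EP4 receptors lies cyclic AMP. Of 22 symbols of that response, 20 genes passed the TPM minimum. Of those, 5 were higher and 5 lower, beside 23.9% and 23.3% of all genes. Another 10 were within 1.3-fold, and the median log2 change of the list was -0.01. AREG, an EGF family ligand (1.45 and 5.76 TPM, log2 change 1.92), and NR4A1, an orphan nuclear receptor induced early (15.9 and 51.7 TPM, log2 change 1.69), had the highest changes. PDE4D, a phosphodiesterase that breaks down cyclic AMP (15.99 and 4.94 TPM, log2 change -1.67), and PRKAR1A, a regulatory subunit of protein kinase A (1202 and 484 TPM, log2 change -1.31), had the lowest. The genes did not share a direction, and RNA levels do not measure cyclic AMP.

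The study discusses PGE2 as a possible upstream signal of VEGF. It also reports, without naming them, that some prostaglandin E synthase genes were detected but missed its filter for differential expression. That filter also used p-values and read counts, unlike the criterion applied here. Of 10 VEGF ligands and receptors found, 4 were higher and 1 lower, beside 23.9% and 23.3% of all genes. VEGFD was the higher ligand (1.07 and 6.11 TPM, log2 change 2.41), while VEGFA (110 and 122 TPM), VEGFC (9.92 and 11.0 TPM) and the more abundant PGF (909 and 725 TPM) were within 1.3-fold. Among receptors and co-receptors, KDR (0.79 and 2.18 TPM), VEGFRKDRL (1.02 and 3.0 TPM) and NRP1 (7.31 and 16.3 TPM) were higher. The study had itself reported VEGFD and VEGFRKDRL as upregulated, from data that include these libraries. FLT1 (4.85 and 2.77 TPM) was lower, and FLT4 (4.36 and 3.88 TPM) and NRP2 (12.2 and 11.9 TPM) were within 1.3-fold. PTGES and VEGFD were thus both higher at post-SM6, a shared direction that 2 libraries cannot relate to each other.

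Over all lists of pathway genes, 100 genes passed the TPM minimum, of which 32 (32.0%) were higher and 24 (24.0%) lower, with a median log2 change of 0.01. Over all genes the shares were 23.9% and 23.3%.

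**Figure D4:**
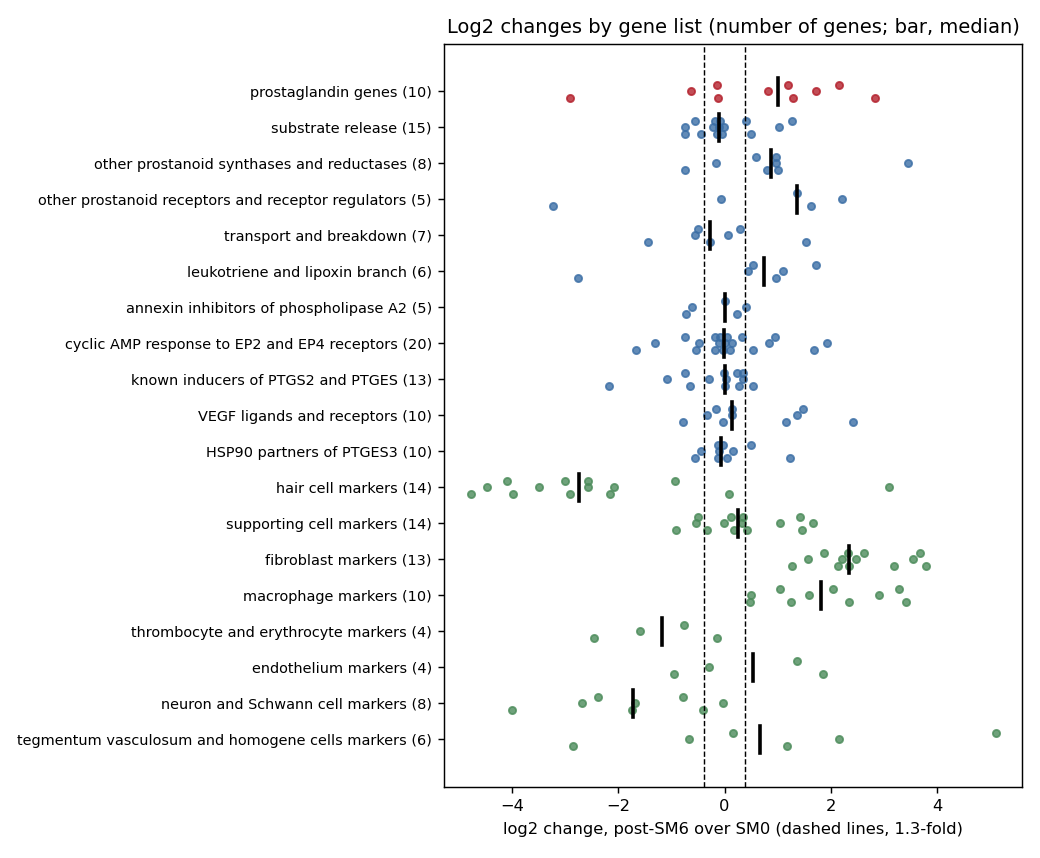
Log2 change (post-SM6 over SM0) of each gene that reached 1 TPM in at least 1 library, by list, for the prostaglandin genes (red), lists of related pathway genes (blue) and cell type markers (green), with the number of genes in brackets, a bar at the median and dashed lines at 1.3-fold. Prostaglandin genes spread from -2.92 to 2.83, HC markers lie mostly on the left, and all fibroblast and macrophage markers lie on the right.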

How the data were processed

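Total RNA of BP explants was sequenced in 1 library per time point, each from 50 pooled BPs. Per the submitters' notes and the study's methods, the authors removed ribosomal RNA reads with Bowtie2 (2.1.0), aligned the rest to GRCg6a with STAR (2.7.1a) and computed the deposited TPM with RSEM (1.3.0). TPM are scaled to 1 sum per library and keep no depth, so no count model, interval or detection limit was computed. The post-SM6 column is headed by the 54 h since the start of exposure.

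The log2 change used a pseudocount of 0.1. The 13321 genes that reached 1 TPM in at least 1 library were called at 1.3-fold. No test was run. Of 134 pathway symbols, 112 were found, by the file's symbol or the current RefSeq symbol (GRCg7b), whose coordinates are not printed because the build differs. All 10 members are named, and from each list the genes with the highest and lowest change, 2 on either side in lists of 8 or more. VEGF and HSP90 partner genes are all named. Members and lists were chosen with earlier results of these data known. A planned comparison of protein sequences was not run. The fold step was tested only on simulated data, with large changes planted in well-expressed genes. That test does not cover changes near 1.3-fold or levels near 1 TPM. Alternatives were pseudocounts of 1 and 0.01, 2 other scalings, other TPM minimums, a fold of 2 and the weighted average difference (WAD) on TPM at 0.91, a threshold that the study set on read counts. Python 3.11.15, numpy 2.4.6, pandas 2.3.3 and matplotlib 3.10.9 were used.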

Additional observations from a re-analysis of the deposited data

How the results depend on the processing

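A change of pseudocount cannot reverse the direction of a gene, so it is no check of direction. Under the 2 other scalings of TPM, which shift values little, no gene of the 10 changed direction. Under pseudocounts of 1 or 0.01 and these scalings, 37 of 40 values stayed on the same side of 1.3-fold and within 1.5-fold of the value given. The exceptions arose with a pseudocount of 1, which gave log2 changes of 0.80 for PTGER3, 1.37 for PTGS1 and -0.35 for PTGER4, the last no longer past 1.3-fold. Scaling by the median ratio shifts all log2 changes by 0.03. The count of higher genes among the 10 was 3 instead of 6 with a minimum of 5 TPM, and 0 by WAD on TPM. That of lower genes was 1 instead of 2 with a pseudocount of 1, a minimum of 5 TPM or a fold of 2, and 0 by WAD. WAD weights the change by the level and called 0.195% of all genes higher and 0.248% lower. Over the pathway lists, a fold of 2 gave 17 higher and 7 lower genes instead of 32 and 24, and WAD gave 0 and 0. Depth is unknown, so values near 1 TPM carry an unknown counting error.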

Other observations

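The 3 genes whose levels lay closest to those of PTGES in both libraries, by distance in log2(TPM + 0.1), were GALNT11 (17.7 and 42.2 TPM, distance 0.03), BF1 (16.3 and 42.3 TPM, distance 0.11) and MINPP1 (18.9 and 43.9 TPM, distance 0.11). With 2 libraries such likeness describes levels alone.

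Of genes beside or overlapping members in the RefSeq order that reached 1 TPM, C8G, PRRX2 and DAB2 were higher at post-SM6. PLA2G4A, which overlaps PTGS2, and ATP5B, beside PTGES3, were lower, and the rest were within 1.3-fold. Over all genes 23.9% were higher and 23.3% lower. PRRX2 reached 1 TPM only at post-SM6. All neighbours given here were named after their values were seen. C8G, a lipocalin of the complement system beside PTGDS, had 6.05 TPM before exposure and 15.1 TPM after it. LCN15, on the other side of PTGDS, had 12.1 and 13.5 TPM (log2 change 0.16). PRRX2, a mesenchymal homeobox gene near PTGES, had 0.49 and 2.34 TPM (log2 change 2.05). DAB2, an endocytic adaptor beside PTGER4, had 1.85 and 7.95 TPM (log2 change 2.05), while PTGER4 itself was lower. The genes on either side of PTGES2, BBLN and ODF2, had log2 changes of -0.15 and -0.12, close to the -0.14 of PTGES2.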
